A study of Mus musculus with 4 samples.

Results

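Cells with high levels of interferon-stimulated genes were examined in 4 single-cell RNA sequencing libraries of cultured mouse adipose cells. Barcodes with 5000 to 75000 unique molecular identifiers (UMIs), 200 to 7500 detected genes and less than 10% mitochondrial UMIs were kept. The interferon-high cells were the 5% of kept barcodes in each library with the largest share of UMIs from the 5 marker genes *Ifit1*, *Ifit3*, *Isg15*, *Rsad2* and *Iigp1*. They numbered 1412 of 28262 kept barcodes, with 381 of 7629 in iWAT_DFAT, 323 of 6464 in eWAT_DFAT, 371 of 7424 in iWAT_ASPC and 337 of 6745 in eWAT_ASPC. Their reference was the low group, the 19266 barcodes whose marker share was at or below the median of their library. That median was 0 in every library but iWAT_DFAT, so the low group of eWAT_DFAT, iWAT_ASPC and eWAT_ASPC held every cell without a marker UMI, or 69.9%, 90.6% and 62.3% of the kept barcodes. Since the cells were chosen on their own counts, all values below describe them and none was tested.

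The libraries held primary cultures from male C57BL/6J mice fed with chow. The DFAT libraries held de-differentiated fat (DFAT) cells, which arise when isolated mature adipocytes are left to attach in an inverted, filled flask (ceiling culture). The ASPC libraries held cultured cells of the stromal vascular fraction, a mixed fraction that contains adipose stem and progenitor cells (ASPCs). Cells of each kind were taken from inguinal (iWAT) and epididymal (eWAT) white adipose tissue, detached with trypsin and sorted with the viability dye 7-AAD before droplet capture. No interferon, virus or other stimulus is named for any of the 4 cultures. With 1 library per condition there was no replicate error, and every interval given here covers counting error only. The libraries held 211396227 to 242282812 UMIs over all droplets, and each pair of libraries shared 13 to 20 kept barcode sequences. Per the file headers, iWAT_ASPC was written by another version of the counting software, which cannot be told apart from the library in any value below.

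Type I interferons signal through the receptor IFNAR1 and IFNAR2 and the kinases JAK1 and TYK2 to a complex that holds STAT2 and IRF9 and binds the interferon-stimulated response element (ISRE) in gene promoters. Interferon gamma signals through IFNGR1 and IFNGR2 to another promoter element, the gamma-activated site (GAS). The induced genes encode antiviral effectors, sensors of foreign nucleic acid, guanylate-binding proteins and immunity-related GTPases, and the machinery that displays peptides on class I molecules. Fibroblast-like stromal cells are known to respond to both kinds of interferon.

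The promoters of 4 of the marker genes, and those of *Cxcl10* and *Bst2*, which were not part of the choice of cells, are shown because they hold the ISRE letters. Each window runs from 250 bases before to 50 bases after the transcription start in RefSeq on GRCm38.p6, is read in the direction of the gene, and has every match to GAAANNGAAA, or to its other-strand form TTTCNNTTTC, in capitals:
Isg15 (chr4:156200769-156201068, minus strand): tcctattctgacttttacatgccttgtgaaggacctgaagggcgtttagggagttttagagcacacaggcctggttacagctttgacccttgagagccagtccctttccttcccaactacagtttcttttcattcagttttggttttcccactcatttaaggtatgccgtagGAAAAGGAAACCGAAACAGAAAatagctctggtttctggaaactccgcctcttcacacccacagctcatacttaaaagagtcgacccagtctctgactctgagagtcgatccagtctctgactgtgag
Ifit1 (chr19:34640639-34640938, plus strand): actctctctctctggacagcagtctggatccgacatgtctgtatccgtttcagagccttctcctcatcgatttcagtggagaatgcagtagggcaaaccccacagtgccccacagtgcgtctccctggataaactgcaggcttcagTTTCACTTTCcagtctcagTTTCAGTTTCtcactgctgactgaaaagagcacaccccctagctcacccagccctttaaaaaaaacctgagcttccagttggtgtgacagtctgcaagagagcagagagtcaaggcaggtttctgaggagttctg
Ifit3 (chr19:34583279-34583578, plus strand): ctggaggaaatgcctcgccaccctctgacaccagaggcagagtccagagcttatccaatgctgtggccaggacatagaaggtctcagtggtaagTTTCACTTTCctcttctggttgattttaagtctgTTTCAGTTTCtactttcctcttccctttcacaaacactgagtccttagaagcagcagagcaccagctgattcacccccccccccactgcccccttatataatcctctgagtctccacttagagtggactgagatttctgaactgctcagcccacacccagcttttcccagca
Rsad2 (chr12:26456403-26456702, minus strand): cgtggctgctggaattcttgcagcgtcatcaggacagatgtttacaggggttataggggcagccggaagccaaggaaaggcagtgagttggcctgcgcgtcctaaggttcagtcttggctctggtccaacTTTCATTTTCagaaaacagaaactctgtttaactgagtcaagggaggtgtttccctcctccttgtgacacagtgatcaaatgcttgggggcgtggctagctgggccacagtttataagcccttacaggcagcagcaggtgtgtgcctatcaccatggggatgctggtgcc
Cxcl10 (chr5:92348840-92349139, minus strand): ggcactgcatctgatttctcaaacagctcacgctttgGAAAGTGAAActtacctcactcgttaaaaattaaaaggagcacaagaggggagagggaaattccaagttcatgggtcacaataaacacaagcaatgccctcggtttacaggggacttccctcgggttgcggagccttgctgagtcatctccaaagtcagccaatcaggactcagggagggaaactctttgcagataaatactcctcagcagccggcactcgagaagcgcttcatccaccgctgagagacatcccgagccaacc
Bst2 (chr8:71537423-71537722, minus strand): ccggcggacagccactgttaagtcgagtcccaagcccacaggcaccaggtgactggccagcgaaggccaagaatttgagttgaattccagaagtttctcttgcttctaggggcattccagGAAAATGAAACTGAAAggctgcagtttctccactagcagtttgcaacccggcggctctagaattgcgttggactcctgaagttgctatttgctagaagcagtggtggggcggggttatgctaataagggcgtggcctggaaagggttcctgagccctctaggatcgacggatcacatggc
The matches began at -78 in *Isg15*, -104 in *Ifit1*, -156 in *Ifit3*, -120 in *Rsad2*, -213 in *Cxcl10* and -130 in *Bst2*, counted from the transcription start. *Isg15* held 3 overlapping matches, *Ifit1*, *Ifit3* and *Bst2* held 2 each, and *Rsad2* and *Cxcl10* held 1 each. *Iigp1* is not shown, since it was left out of the search, as stated where the letters are counted below.

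The cells fell along a gradient in each library, without a gap at the threshold. The last cell taken and the first cell left out had marker shares of 475.5 and 475.4 UMIs per 1000000 (CPM) in iWAT_DFAT, 142 and 141 in eWAT_DFAT, 44.3 and 44.0 in iWAT_ASPC, and 477.3 and 474.5 in eWAT_ASPC. The median interferon-high cell stood at 719, 241, 68.3 and 844 CPM in the same order. The interferon-high cells held 42.0% of all marker UMIs of iWAT_DFAT, 53.6% in eWAT_DFAT, 84.2% in iWAT_ASPC and 63.3% in eWAT_ASPC. The top 1% of cells held 18.9%, 28.9%, 64.1% and 30.3%. These shares come from the UMIs that ranked the cells and describe that ranking only. They rest on 18380, 5119, 2126 and 19282 marker UMIs in the same order of libraries.

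**Figure D1:**
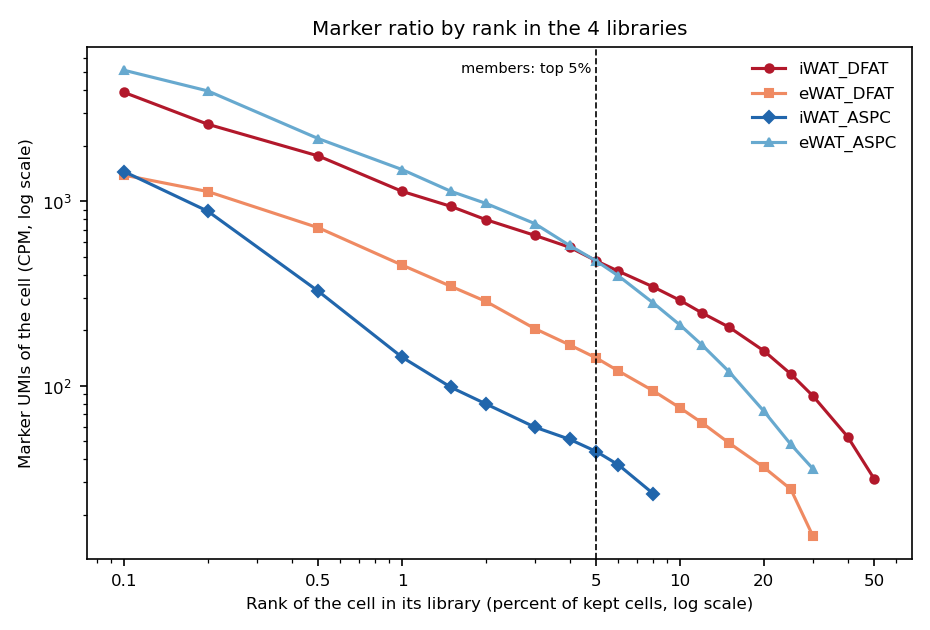
Marker share of a cell (UMIs of the 5 marker genes per 1000000 UMIs of that cell, log scale) against the rank of the cell in its library (percent of kept cells, log scale), for 4 libraries. At the 5% line the curves of iWAT_DFAT and eWAT_ASPC meet near 475.5 and 477.3 CPM, while eWAT_DFAT is at 142 and iWAT_ASPC at 44.3; ranks without a marker UMI are not drawn.

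The marker UMIs behind the choice of cells were unequal between libraries, and these counts describe the choice itself. Every interferon-high cell of iWAT_DFAT had 5 or more marker UMIs, as did 99.7% of those of eWAT_ASPC, 57.0% of those of eWAT_DFAT and 14.3% of those of iWAT_ASPC. In iWAT_ASPC 202 of the 371 cells (54.4%) were chosen on a single marker UMI. A UMI in at least 3 of the 5 marker genes was found in 85.6%, 23.5%, 12.7% and 66.2% of the interferon-high cells of iWAT_DFAT, eWAT_DFAT, iWAT_ASPC and eWAT_ASPC, the order in which all series of 4 values are given below. Its 53 cells with 5 or more marker UMIs were all the kept barcodes of that library with so many, and the median of the interferon-stimulated genes, *Irf7* and *Bst2* are also given below for them alone.

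The 5 marker genes made up the signal in different proportions. *Isg15*, which encodes a ubiquitin-like modifier, reached 362 CPM (95% Poisson interval 349 to 376) in the interferon-high cells of iWAT_DFAT, 244 (232 to 255) in eWAT_DFAT, 33.5 (29.7 to 37.8) in iWAT_ASPC and 778 (760.5 to 795) in eWAT_ASPC. *Ifit1*, an inhibitor of the translation of foreign RNA, stood at 245, 52.1, 75.1 and 207 CPM, and *Ifit3*, its partner, at 137, 12.3, 65.0 and 132 CPM. *Iigp1*, an immunity-related GTPase, stood at 236, 80.7, 35.0 and 82.2 CPM. *Rsad2*, which encodes the antiviral enzyme viperin, was the scarcest, with 43.1, 5.46, 12.2 and 46.2 CPM, and 48.5% of its UMIs in the interferon-high cells of iWAT_ASPC came from a single cell. *Isg15* gave 61.8% and 62.4% of the marker UMIs of these cells in eWAT_DFAT and eWAT_ASPC but 35.4% in iWAT_DFAT and 15.2% in iWAT_ASPC, where *Ifit1* and *Ifit3* gave 34.0% and 29.4%. In the low group the marker genes were at 0 or near 0 by construction. Droplets with 1 to 100 UMIs, which hold free RNA, carried 31.7, 17.0, 1.68 and 58.5 CPM of *Isg15*, and the part of free RNA in the choice of cells with few marker UMIs was not tested.

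Depth and quality were compared next. The interferon-high cells had a median of 18366 UMIs against 23769 in the low group of iWAT_DFAT, 19515 against 27063.5 in eWAT_DFAT, 20064 against 24857 in iWAT_ASPC and 26652 against 26924 in eWAT_ASPC. In iWAT_ASPC the cells that had a marker UMI but were not taken had a median of 33357 UMIs, so that a single marker UMI qualified shallower cells. After each cell was thinned to 5000 UMIs, the median number of genes was 2157 against 2196, 2100 against 2111, 2079 against 2090 and 2011 against 2075. Median mitochondrial shares lay between 1.93% and 3.10% in all groups. The cells with the highest doublet scores made up 1.57%, 3.72%, 5.12% and 5.34% of the interferon-high cells and 5.29%, 4.63%, 5.68% and 4.496% of the low group. Compared within bins of ranked depth, 44 genes were at least 2-fold higher in all 4 libraries, all of them among the 53 described below, and with those doublets removed 53 were, of which 52 were among them.

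Most of the interferon-high cells carried stromal markers. At 5000 UMIs per cell, 3 or more of 11 stromal markers were detected in 99.7%, 80.5%, 98.9% and 99.7% of them, against 97.6%, 80.8%, 96.97% and 94.8% of the low group. *Dcn*, which encodes the matrix proteoglycan decorin, stood at 3114 CPM against 1168 in iWAT_DFAT, 823 against 206 in eWAT_DFAT, 332 against 172 in iWAT_ASPC and 489 against 246 in eWAT_ASPC. Of 18 listed leukocyte markers, 16 had a UMI in some kept cell. *Ptprc*, *Tyrobp*, *C1qa*, *C1qc*, *Itgax*, *Cd3e* and *Siglech* had no UMI in the interferon-high cells of any library. They mark leukocytes, macrophages, dendritic cells or T cells and were named for that absence. At full depth 3 or more of the 18 were detected in 0.787%, 0.929%, 0.270% and 0.890% of the interferon-high cells. The low group had 0.472%, 0.598%, 0.535% and 1.21%. Of the 2 past the filter, 1 was at least 2-fold higher in iWAT_DFAT, where 2.29% of all genes tested were. The summed level of the 18 leukocyte markers was 39.4 against 28.0 CPM, 28.0 against 24.4, 19.1 against 25.8 and 31.8 against 75.3, and *Csf1r* gave the largest part of it in the interferon-high cells, at 8.38 to 20.5 CPM. Markers of other cell types differed in some libraries. The 8 pericyte markers summed to 27.7 against 13.5 CPM, 89.0 against 18.8, 48.1 against 42.2 and 31.1 against 37.5. The 10 endothelial markers summed to 46.6 against 24.8 CPM, 107 against 48.1, 39.1 against 37.0 and 33.4 against 89.5, and the 8 glial markers to 81.9 against 33.0 CPM in iWAT_ASPC; their part in the results below was not tested.

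Outside the marker genes, 10654 genes reached 2 CPM over all kept cells of every library. Of these, 53 (0.497%) were at least 2-fold higher in the interferon-high cells than in the low group of all 4 libraries, and 3 (0.0282%) were at least 2-fold lower. The 53 genes comprised 22 of the interferon-stimulated genes listed (antiviral effectors, interferon-inducible GTPases and enzymes of ISG15 conjugation), 6 nucleic acid sensors, 4 transcription factors, 3 genes of class I presentation, the chemokine gene *Cxcl10*, the stromal gene *Lum* and 16 genes in no list. Within single libraries 244 genes (2.29%) were past 2-fold in iWAT_DFAT, 335 (3.14%) in eWAT_DFAT, 100 (0.939%) in iWAT_ASPC and 103 (0.967%) in eWAT_ASPC. When the filter was set over the cells that were not interferon-high, a version added after the data were seen, 47 of the 53 remained, among them 19 of the 22 interferon-stimulated genes. The 6 that passed the filter only with the interferon-high cells included were *Cxcl10*, *Irf7*, *Rtp4*, *Phf11d*, *Parp10* and *Hp*. When cells were ranked after thinning to 5000 UMIs, only 14 genes were at least 2-fold higher in all 4 libraries, all of them among the 53. In iWAT_ASPC, thinning left *Ifit1* in 13.2%, *Ifit3* in 14.0%, *Isg15* in 14.6%, *Rsad2* in 2.16% and *Iigp1* in 9.97% of the interferon-high cells. Many cells of that library were therefore tied in the thinned ranking, and tied cells were taken by barcode order. The part of these ties in the lower count was not tested. When the interferon-high cells were limited to those with 5 or more marker UMIs, 60 genes were, of which 48 were among the 53.

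Of 80 listed interferon-stimulated genes, 41 passed the filter. The list was chosen with earlier results of these data known, so its counts and medians describe these cells only. At least 2-fold higher in all 4 libraries were 22 of these, against 0.497% of all genes tested. None was at least 2-fold lower in all 4, against 0.0282%, so that this count says nothing particular about these genes. With the filter set over the cells that were not interferon-high, 38 passed and 19 were at least 2-fold higher. The medians below cover all 41. The count of 22 was 9 after ranking on thinned cells, 11 in the top 10% of cells and 12 with the filter at 5 CPM. Of the 41, 40 were above the low group in every library, against 17.3% of all genes tested. Their median log2 ratio was 1.89 in iWAT_DFAT, 1.42 in eWAT_DFAT, 1.18 in iWAT_ASPC and 1.90 in eWAT_ASPC, against -0.08, -0.02, -0.01 and -0.10 over all genes tested. The 53 cells of iWAT_ASPC with 5 or more marker UMIs gave a median of 1.98 over these genes, the 116 cells with 2 to 4 gave 0.82 and the 202 cells with 1 gave 0.62. Of the 80 genes, 76 matched a feature, and those left out by the filter were under 2 CPM in at least 1 library, as were 4 of the 5 marker genes.

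Several antiviral effectors are given with their levels. *Rtp4*, which encodes a receptor transporter protein with antiviral activity, stood at 83.9 CPM against 5.76 in iWAT_DFAT, 27.6 against 1.68 in eWAT_DFAT, 22.6 against 1.26 in iWAT_ASPC and 60.1 against 1.54 in eWAT_ASPC. *Phf11d* stood at 131 against 9.03, 27.7 against 3.13, 12.6 against 1.68 and 54.1 against 3.33 CPM. Both genes reached 2 CPM in iWAT_ASPC only with the interferon-high cells included. *Trim30a*, of the tripartite motif family, had log2 ratios of 3.98, 2.92, 2.51 and 3.72. *Parp14*, an ADP-ribosyltransferase, had 3.01, 2.57, 2.04 and 2.94. *Bst2*, which encodes tetherin, the protein that holds budding virus at the cell surface, stood at 357 against 43.6, 324 against 112, 108 against 27.7 and 409 against 56.0 CPM. Its level in the low group was highest in eWAT_DFAT, where its ratio was smallest, and the 53 cells of iWAT_ASPC with 5 or more marker UMIs had 171 CPM.

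*Ifit2* lies beside *Ifit3* and *Ifit1* on chromosome 19 of mm10, at 34550694 to 34576419, with *Ifit3* at 34583531 to 34588731 and *Ifit1* at 34640871 to 34650009. Its level was 17.8 CPM against 8.84 in iWAT_DFAT, 10.5 against 10.5 in eWAT_DFAT, 9.12 against 6.71 in iWAT_ASPC and 15.1 against 8.11 in eWAT_ASPC. The log2 ratios of 1.01, -0.01, 0.44 and 0.90 left it under 2-fold in every library but iWAT_DFAT. *Ifit3* and *Ifit1* were used to choose the cells, so no contrast is drawn with them. *Ifit3b*, a near copy of *Ifit3* that shares sequence with it, was kept out of all counts, and UMIs cannot be divided between such copies with certainty.

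Of 17 interferon-inducible GTPase genes that matched a feature, 3 passed the filter. *Gbp2* stood at 105 against 15.6, 74.4 against 10.8, 26.4 against 9.60 and 64.6 against 15.2 CPM. *Gbp7* had log2 ratios of 3.52, 3.01, 2.79 and 3.32, and *Irgm1*, which acts in autophagy of intracellular microbes, had 3.03, 1.57, 1.34 and 2.25. These 3 were at least 2-fold higher in all 4 libraries, against 0.497% of all genes tested. Of the enzymes of ISG15 conjugation, the E2 enzyme gene *Ube2l6* had ratios of 1.80, 1.77, 1.28 and 1.90, the ligase gene *Herc6* 2.72, 1.23, 1.01 and 2.15, and *Trim25* 0.93, 0.56, 0.86 and 1.45.

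Among regulators, *Irf7*, the factor that amplifies type I interferon production, is given first. It stood at 107 CPM against 4.87 in iWAT_DFAT, 36.3 against 3.27 in eWAT_DFAT, 18.2 against 1.24 in iWAT_ASPC and 60.5 against 2.24 in eWAT_ASPC, and at 49.0 CPM in the 53 cells of iWAT_ASPC with 5 or more marker UMIs. It reached 2 CPM in iWAT_ASPC only with the interferon-high cells included. *Stat2* (log2 ratios 2.28, 2.35, 1.92 and 2.54) and *Irf9* (1.74, 1.54, 1.495 and 1.84), which act in the complex that binds the ISRE, were also past 2-fold in every library. Of the 12 kinase and factor genes past the filter, 4 were at least 2-fold higher in all 4 libraries, against 0.497% of all genes tested. The other 8 were not, among them *Irf1* (1.35, 1.35, 0.58 and 0.61), a target of interferon gamma. Another was *Irf3* (0.22, -0.07, 0.16 and 0.18), which acts before interferon is made. *Jak1* and *Tyk2* stayed within 1.5-fold in each library.

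The receptor genes are given by their ratios. *Ifnar1* had log2 ratios of 0.77, 0.45, -0.12 and 0.05, and *Ifnar2* 0.82, 0.95, 0.29 and 0.25. *Ifngr1* had 0.45, 0.51, 0.09 and 0.10, and *Ifngr2* had 0.07, 0.24, -0.17 and -0.03. None of the 5 receptor genes past the filter reached 2-fold in any library, where 2.29%, 3.14%, 0.939% and 0.967% of all genes tested did, so that the count says nothing particular about these genes.

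Interferon transcripts were scarce or undetected in the captured cells. *Ifnb1*, the 14 other type I genes listed that encode interferon alpha or a relative, *Ifnl2* and *Ifnl3* had 0 UMIs in all 28262 kept cells. A count of 0 bounds their level from above and does not show that it was 0. *Ifng* had 3 UMIs, in 2 cells of iWAT_ASPC, neither of them interferon-high. *Ifnz* had 118 UMIs, of which 7 were in interferon-high cells, *Ifnk* had 4 and *Ifne* 2, with none in interferon-high cells. Brief or rare expression of these genes is not detectable at this depth.

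Of 15 nucleic acid sensor genes past the filter, 6 were at least 2-fold higher in all 4 libraries, against 0.497% of all genes tested. *Ifih1* and *Ddx58*, which encode the RNA sensors MDA5 and RIG-I, had log2 ratios of 3.04, 2.20, 2.20 and 2.62, and of 2.19, 1.44, 1.23 and 2.19. *Ifi203*, *Ifi205*, *Ifi207* and *Mndal*, members of the p200 family, were the others, with *Ifi203* at 95.4 against 8.78, 33.7 against 5.11, 17.9 against 3.67 and 47.7 against 5.63 CPM. These related genes lie on chromosome 1, where *Ifi203* and *Mndal* overlap in position. Reads may be shared among them, so they are not separate sensors with certainty in the count of 6. The DNA sensor gene *Cgas* went the other way, with ratios of -0.64, -0.48, -0.27 and -0.75. The adaptor genes *Mavs* (-0.22, -0.13, 0.17 and -0.42) and *Tmem173* (0.42, 0.28, 0.16 and 0.08), which encode MAVS and STING, stayed within 1.5-fold.

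**Figure D2:**
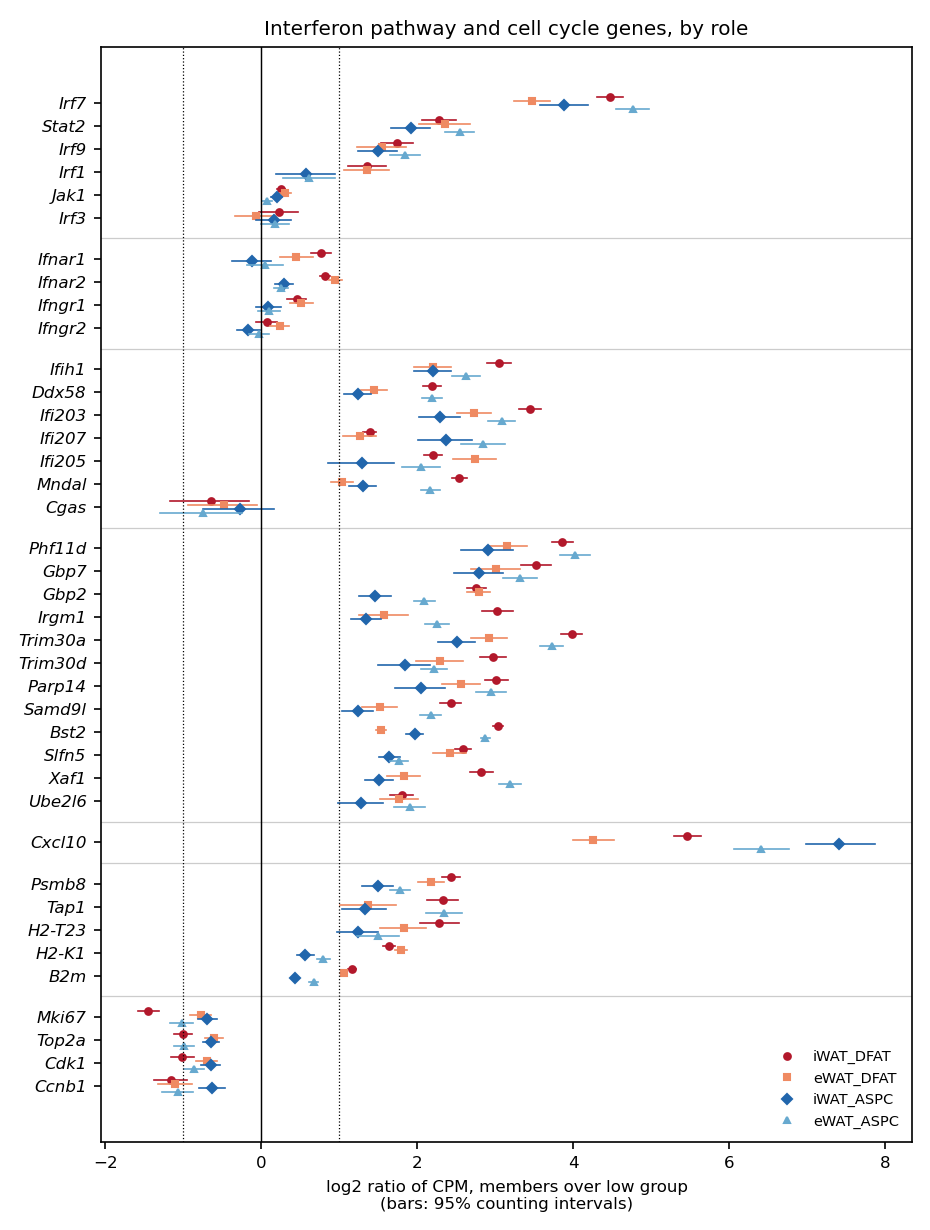
log2 ratio of CPM in the interferon-high cells (members) over the low group for genes of the interferon pathway and the cell cycle, by role and library, with bars for the exact conditional binomial 95% intervals. Irf7, the GTPases and the 6 sensors plotted other than Cgas lie to the right of the dotted 2-fold line in all 4 libraries, the receptors lie to the left of that line, and the cell cycle genes lie to the left of 0; H2-K1 and B2m pass 2-fold in the DFAT libraries only.

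Genes of class I presentation were higher in all libraries. All 16 that passed the filter were above the low group in every library, as were 17.3% of all genes tested, with 14 and 13 of them past 2-fold in iWAT_DFAT and eWAT_DFAT, and 3 and 6 in iWAT_ASPC and eWAT_ASPC. Of all genes tested, 2.29%, 3.14%, 0.939% and 0.967% were past 2-fold in these libraries. The immunoproteasome subunit gene *Psmb8* stood at 107 against 19.9, 53.3 against 11.8, 29.8 against 10.6 and 68.3 against 19.9 CPM. *H2-K1*, a classical class I heavy chain, stood at 229 CPM against 73.3 in iWAT_DFAT, 239 against 69.1 in eWAT_DFAT, 87.0 against 58.8 in iWAT_ASPC and 132 against 76.0 in eWAT_ASPC, closer together in the ASPC libraries than in the DFAT libraries. *B2m*, the light chain, had log2 ratios of 1.16, 1.05, 0.43 and 0.67. *Tap1* (2.32, 1.37, 1.32 and 2.34), the peptide transporter, and *H2-T23* (2.28, 1.82, 1.23 and 1.498) were past 2-fold in all 4. With 1 library per condition the difference between DFAT and ASPC libraries was not tested. Reads of the class I genes can be shared among their near-identical copies.

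Of the listed interferon-linked chemokine genes, 4 passed the filter. Past 2-fold in all 4 libraries was 1 of these, against 0.497% of all genes tested. It was *Cxcl10*, which encodes a chemokine for T cells. It stood at 157 CPM (148 to 166) against 3.56 in iWAT_DFAT, 35.6 (31.3 to 40.3) against 1.87 in eWAT_DFAT, 46.4 (41.8 to 51.3) against 0.273 in iWAT_ASPC and 56.3 (51.7 to 61.2) against 0.666 in eWAT_ASPC. In every library but iWAT_DFAT it reached 2 CPM over all kept cells only with the interferon-high cells included. Few cells carried it. At 5000 UMIs per cell it was found in 15.7%, 8.05%, 3.50% and 4.15% of the interferon-high cells, against 1.73%, 0.84%, 0.19% and 0.24% of the low group, while droplets of free RNA held 16.8, 4.45, 1.68 and 4.09 CPM. A single cell gave 47.3% of its UMIs among the interferon-high cells of iWAT_ASPC. Interferon-high cells with 3 or more *Cxcl10* UMIs, a split made after the values were seen, numbered 51, 20, 9 and 16. Of these, 30, 11, 8 and 11 were in the top 1% by marker share, so that the split is not separate from the marker ranking.

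The levels in these *Cxcl10*-bearing cells are given against those in the other interferon-high cells. *Ccl5*, another chemokine gene, was below the filter, was named after its values were seen, and stood at 639 against 89.1, 491 against 2.46, 239 against 11.6 and 379 against 3.50 CPM. Its UMIs came from 6, 3, 1 and 1 of the *Cxcl10*-bearing cells, and without the cell that held the most the level was 253, 130.1, 0 and 0 CPM, so that in the ASPC libraries the values of 239 and 379 CPM are those of 1 cell each. *Oasl1*, of the oligoadenylate synthetase family, stood at 239 against 25.8, 129.9 against 12.9, 333 against 4.94 and 101 against 5.20 CPM. *Ifih1* followed with 126 against 68.0, 74.8 against 22.9, 248 against 15.96 and 173 against 32.1 CPM. Without the cell with the most UMIs of the gene, *Oasl1* stood at 194, 69.9, 143 and 64.8 CPM and *Ifih1* at 119, 60.2, 120 and 141 CPM. *Bst2* stood at 541 against 323, 302 against 325, 169 against 106 and 913 against 389 CPM, and *Irf7* at 179 against 94.1, 44.0 against 35.8, 84.4 against 16.5 and 199 against 54.8 CPM. *Ccl2*, listed among the interferon-linked chemokines, stood at 4301 against 3563, 6809 against 5364, 1552 against 273 and 681 against 133 CPM. The NF-kB target *Il6* stood at 239.9 against 348, 143 against 194, 9.38 against 17.7 and 49.0 against 38.0 CPM. No *Ifnb1* UMI was found in any of these cells. The CPM of a few cells rests on few UMIs.

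**Figure D3:**
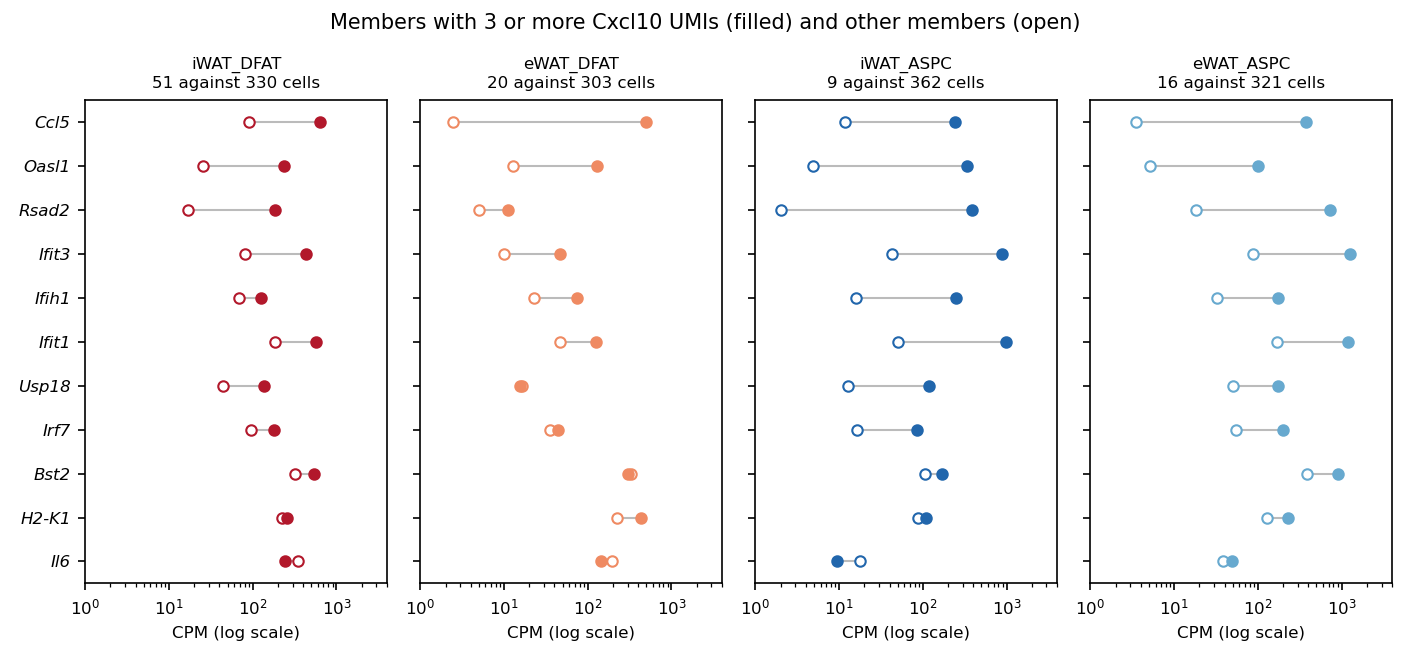
CPM (log scale) of 11 genes in interferon-high cells (members) with 3 or more Cxcl10 UMIs (filled points) and in the other interferon-high cells (open points), by library, with the number of cells above each panel. Oasl1 and Ifih1 lie to the right in the filled points of every library, the Ccl5 values of the ASPC libraries are those of 1 cell each, while Bst2 and Irf7 lie close together in eWAT_DFAT; Ifit1, Ifit3 and Rsad2 were used to choose the cells, and the counts of cells are 51, 20, 9 and 16.

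Along the marker gradient several interferon genes outside the choice of cells were higher at each step. The cells were put in order as those without a marker UMI, those with a marker UMI that were not taken, the interferon-high cells outside the top 1%, and the top 1%. The GTPase list summed to 39.4, 103, 336 and 822 CPM at these steps in iWAT_DFAT, 24.1, 41.1, 139 and 264 in eWAT_DFAT, 36.8, 47.6, 76.7 and 278 in iWAT_ASPC, and 39.8, 71.2, 183 and 673 in eWAT_ASPC. *Irf7* stood at 4.86, 19.3, 84.0 and 203 CPM in iWAT_DFAT and at 1.24, 3.49, 11.3 and 43.4 in iWAT_ASPC. *Cxcl10* stood far higher at the last step than at the others, with 3.33, 10.2, 38.1 and 639 CPM in iWAT_DFAT and 0.666, 2.37, 4.01 and 286 CPM in eWAT_ASPC. Cells below the threshold also carried some of these genes. The low group of iWAT_DFAT, which includes cells with a marker UMI, held 3620 CPM of the listed interferon-stimulated genes. The cells of iWAT_DFAT without a marker UMI held 3611 CPM, and the low groups of eWAT_DFAT, iWAT_ASPC and eWAT_ASPC held 2302, 2342 and 2685. Listed genes under 20 CPM in every library gave 206 CPM in the low group of iWAT_DFAT.

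**Figure D4:**
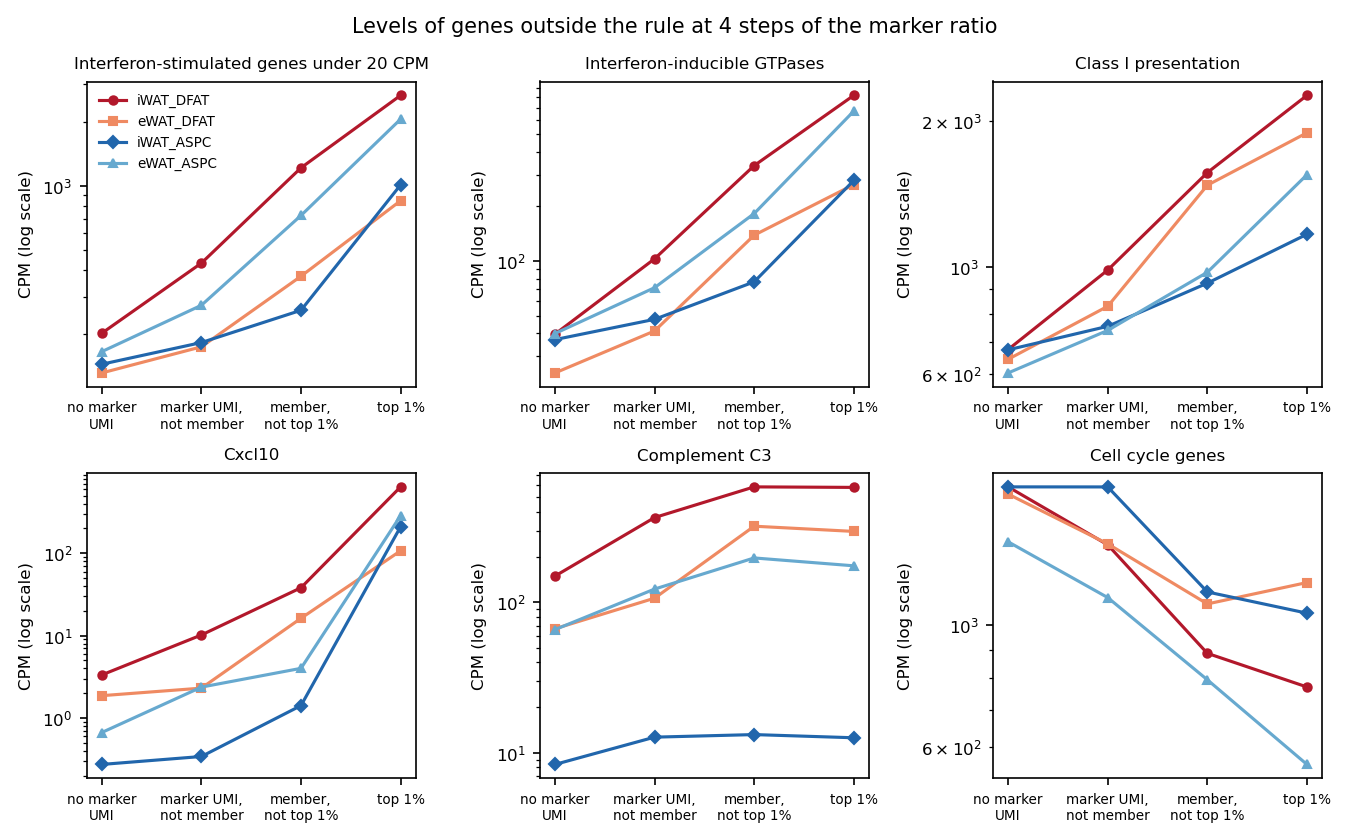
Levels (CPM, log scale) of gene groups and genes outside the choice of cells at 4 steps of the marker share, for 4 libraries. The interferon-stimulated genes under 20 CPM, the GTPases, class I genes and Cxcl10 rise from each step to the next in every library (Cxcl10 from 3.33 to 639 CPM in iWAT_DFAT), C3 levels off between the last steps, and the cell cycle genes are lower at the last step than at the first.

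The choice of cells was also set against a ranking by genes that it did not use. Those genes were listed with earlier results of these data known, so the shares below are descriptions. Of the interferon-high cells, 39.9% (exact binomial 95% interval 34.9 to 45.0) were also in the top 5% of their library by the 80 listed interferon-stimulated genes in iWAT_DFAT, 42.1% (36.7 to 47.7) in eWAT_DFAT, 25.9% (21.5 to 30.6) in iWAT_ASPC and 47.5% (42.0 to 53.0) in eWAT_ASPC. With both rankings made at 5000 UMIs per cell the shares were 34.6%, 29.7%, 14.3% and 38.6%. Tied cells, many of them in iWAT_ASPC, were again taken by barcode order. Over the 53 of these genes under 20 CPM in every library they were 63.0%, 44.9%, 31.8% and 57.6%, a version added after the data were seen. A median of 5, 2, 1 and 3 of those scarce genes was detected in an interferon-high cell at 5000 UMIs, against 1, 0, 0 and 1 in the low group.

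The 16 genes in no list that were at least 2-fold higher in all 4 libraries included genes of complement and of the acute phase. Their absence from the lists does not place them outside the interferon response, and their link to it was not tested. *C4b*, *C1s1* and *Serping1* encode complement component C4, a protease of the classical pathway and the inhibitor of that protease. *C4b* stood at 52.3 against 9.56, 15.7 against 1.85, 12.8 against 3.55 and 13.2 against 2.98 CPM. *Serping1* stood at 546 against 144, 305 against 48.6, 90.9 against 35.5 and 207 against 85.3 CPM, and *C1s1* had log2 ratios of 1.47, 2.26, 1.37 and 1.25. *Lbp*, which encodes the lipopolysaccharide-binding protein of the acute phase, had 2.21, 2.85, 1.505 and 1.54. *C3*, the central complement component, listed among NF-kB targets, stood at 584 against 152, 315 against 66.7, 13.1 against 8.36 and 193 against 65.9 CPM. Along the 4 steps of the marker share *C3* was at 149, 366, 585 and 580.3 CPM in iWAT_DFAT, and it was no higher at the last step than at the one before in any library. *C4b*, at 9.61, 26.2, 46.0 and 78.0 CPM in iWAT_DFAT and 3.55, 6.05, 9.43 and 25.2 in iWAT_ASPC, was higher at the last step in every library. *Serping1* was at 142, 345, 540.0 and 572 CPM in iWAT_DFAT, 48.6, 90.2, 309 and 289 in eWAT_DFAT, 35.5, 58.5, 82.5 and 121 in iWAT_ASPC and 85.3, 131, 203 and 224 in eWAT_ASPC. *Hp*, which encodes haptoglobin, was past 2-fold in all 4 libraries, but a single cell gave 62.9% of its UMIs in the interferon-high cells of iWAT_ASPC, and its lowest log2 ratio was -0.88 when *Iigp1* was left out of the marker share. The others included *Rnf213*, *Trim12c*, the transcript *Gm20559*, *Agrn*, which encodes agrin, and *Fxyd1*.

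The 3 genes at least 2-fold lower in all 4 libraries were *Hmga2*, *Tll1* and *Hist1h3i*. *Hmga2*, a chromatin protein of growing mesenchymal cells, stood at 114 against 350.3, 193 against 586, 85.6 against 178 and 14.1 against 56.5 CPM. *Tll1*, which encodes a metalloprotease that processes procollagen, stood at 0.795 against 6.06, 15.4 against 52.9, 10.9 against 38.2 and 6.53 against 20.7 CPM. In iWAT_DFAT its level in the interferon-high cells rests on 6 UMIs. *Hist1h3i*, a histone gene of the S phase, had log2 ratios of -1.08, -1.30, -1.23 and -1.24. These rest on 18, 15, 15 and 11 UMIs in the interferon-high cells. The counting interval of each reached under 2-fold, with upper ends of -0.41, -0.57, -0.50 and -0.38. All 18 cell cycle genes listed were below the low group in every library, as were 29.9% of all genes tested, with medians of -1.03, -0.68, -0.64 and -0.98, although none was past 2-fold in all 4. *Mki67*, the marker of cycling cells, stood at 64.8 against 177, 64.0 against 110.0, 70.8 against 114 and 40.6 against 82.4 CPM. When interferon-high cells were chosen anew among the cells at or below the median of cell cycle UMIs, 52 genes were at least 2-fold higher in all 4 libraries, of which 45 were among the 53, and 24 were listed interferon-stimulated genes. The count of lower genes fell to 0 in the top 10% of cells and after thinning to 5000 UMIs, and was 11 without eWAT_DFAT and 8 without iWAT_ASPC.

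The remaining lists differed from library to library. The 19 NF-kB targets past the filter had median log2 ratios of 0.51 and 0.71 in iWAT_DFAT and eWAT_DFAT and of 0.07 and 0.16 in iWAT_ASPC and eWAT_ASPC. None was at least 2-fold higher in all 4, against 0.497% of all genes tested, so that this count says nothing particular about them. Of the 19, 9 were above the low group in every library, against 17.3% of all genes tested. Within single libraries 2, 6, 1 and 2 were past 2-fold, against 2.29%, 3.14%, 0.939% and 0.967%. *C3* is given above, and *Icam1*, an adhesion molecule, had 1.42, 1.72, 1.38 and 0.49. Of 7 adipogenic genes past the filter, 0, 5, 0 and 0 were at least 2-fold higher, against 2.29%, 3.14%, 0.939% and 0.967% of all genes tested. Their medians were 0.13, 1.09, 0.34 and 0.10, and their part in the other ratios of eWAT_DFAT was not tested. *Fabp4*, the fatty acid carrier of adipocytes, stood at 188 CPM against 279 in iWAT_DFAT, 5764 against 1745 in eWAT_DFAT, 103 against 81.3 in iWAT_ASPC and 341 against 333 in eWAT_ASPC. *Pparg*, the factor that drives adipocyte formation, had ratios of 0.04, 1.20, -0.54 and -0.77, and both were past 2-fold in eWAT_DFAT alone. Of 9 contractile genes past the filter, 6 were below the low group in every library, against 29.9% of all genes tested, and none was at least 2-fold lower in all 4, against 0.0282%. They had medians of -0.52, -0.12, -0.37 and -0.23. *Tpm1* stood at 787 against 1126, 1415 against 1932, 1442 against 2167 and 2187 against 2564 CPM. Of the brakes on the response, *Usp18*, which removes ISG15 and blocks IFNAR2 signalling, was below the filter and was named after its values were seen. It stood at 58.8 against 2.16, 16.5 against 1.19, 15.5 against 0.680 and 55.3 against 0.801 CPM. The 5 brakes past the filter had medians of 1.03, 0.47, 0.39 and 0.45. Of these 5, 3, 0, 0 and 2 were past 2-fold, against 2.29%, 3.14%, 0.939% and 0.967% of all genes tested. *Socs1*, 1 of the 5, which inhibits the JAK kinases, had ratios of 0.49, 0.47, 0.39 and 1.07.

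**Figure D5:**
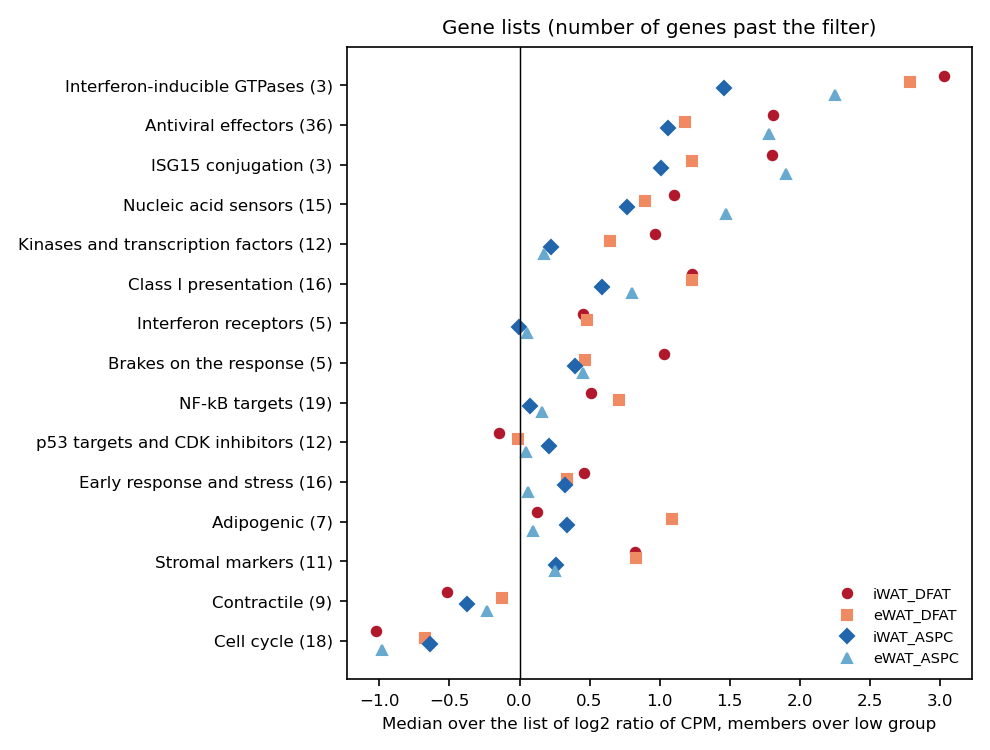
Median over each gene list of the log2 ratio of CPM in the interferon-high cells (members) over the low group, by library, with the number of genes past the filter in brackets. Of the lists drawn, the 3 GTPases have the largest medians and the 18 cell cycle genes the lowest (-1.03, -0.68, -0.64 and -0.98), while NF-kB targets and class I genes have larger medians in the DFAT libraries than in the ASPC libraries.

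The ISRE letters were then counted over the RefSeq windows of 300 bases, with those of chromosome 18, where *Iigp1* lies, left out. They were present in 1079 of 27025 genes (3.99%) and in 300 of the 8487 tested genes that matched (3.53%). Of the 53 genes higher in all 4 libraries, 41 matched and 18 of these (43.9%) held the letters, among them *Cxcl10*, *Bst2*, *Gbp2*, *Stat2* and *Ifih1*. *Irf7* had no match in its window, while *Tll1*, 1 of the 3 lower genes, held the letters. Of the interferon-stimulated genes past the filter, 7 of the 17 matched genes that were at least 2-fold higher in all 4 libraries held them, as did 7 of the 16 that were not. The genes in no list held them in 2 of 11 cases, and *C4b*, *Serping1* and *Lbp* were not analysed here. GAS letters (TTCNNNGAA, the same on both strands) were found in 9.55% of all genes, 8.01% of the tested genes that matched and 3 of the 41, and among the interferon-stimulated genes in 2 of the 17 and 6 of the 16. The motifs were searched separately and their matches may overlap, and a match describes the letters of a window and not a bound site.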

How the data were processed

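The 4 deposited libraries were used, 1 per condition. The authors deposited raw UMI counts per gene and barcode for all droplets, made with Cell Ranger on mm10. The methods and the submitters' notes name version 7.0.0, and the methods state that introns were included. The file headers name other versions than these, and iWAT_ASPC was written by another version than the other libraries. The version and the library therefore cannot be told apart. Whether iWAT_ASPC was counted with introns was not settled. Removal of free RNA with CellBender and of doublets with DoubletFinder, which the methods state for nuclei, was not repeated, and barcodes were kept from 5000 UMIs instead of the 500 of the methods.

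Barcodes were filtered as described, without a cell caller or removal of doublets. UMIs were summed over cells and scaled to CPM, with exact 95% Poisson intervals, exact conditional binomial intervals for ratios, and 3 counts in place of 0 where a bound was needed. Genes were counted from 2 CPM over all kept cells of every library and called at 2-fold in all 4. The members and gene lists were chosen with earlier results of these data known. The named genes were the markers, the regulators, receptors, sensors and brakes past the filter, the 6 largest and 3 smallest of every other list by their lowest ratio, the 10 largest and smallest outside the lists, the 6 with the widest range among genes at 20 CPM or more in the members of some library, and genes past 2-fold in both DFAT or both ASPC libraries only. Alternatives changed the threshold, the reference cells, the depth, the filter, the fold, the scaling, doublets, free RNA and the libraries used. Other genes were named after their values were seen. Of 354 listed symbols, 7 matched no feature. Doublet scores came from Scrublet in scanpy 1.11.5; the rest used Python 3.11.15, numpy 2.4.6, scipy 1.17.1 and pandas 2.3.3. The ratio intervals were tested on simulated data. Gene positions came from GENCODE M21. A gene withheld from the text counts in the totals and is not reported here.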

Additional observations from a re-analysis of the deposited data

Results flagged for a closer look

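*Nfkb1*, which encodes the p105 and p50 subunits of NF-kB, was above the low group in both DFAT libraries and below it in both ASPC libraries. Its log2 ratio was 0.24 in iWAT_DFAT, 0.54 in eWAT_DFAT, -0.24 in iWAT_ASPC and -0.27 in eWAT_ASPC, and each counting interval lay on its own side of 0. The difference between the kinds of culture was not tested, since each condition had 1 library, and none of the ratios reached 2-fold.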

How the results depend on the processing

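The counts of genes at least 2-fold higher (53) and lower (3) in all 4 libraries, with 22 interferon-stimulated genes among the former, differed between alternatives. The top 10% gave 22 higher, 0 lower and 11 interferon-stimulated genes, and ranking after thinning to 5000 UMIs gave 14, 0 and 9. In the thinned ranking tied cells, many of them in iWAT_ASPC, were taken by barcode order. A filter at 5 CPM gave 27, 1 and 12, no filter gave 150, 14 and 48, and 1.5-fold gave 126 higher and 93 lower. The lower genes numbered 7 in the top 2%, 1 within bins of depth, 9 with 10% of free RNA subtracted and 6 at 1 CPM. Leaving out each library in turn gave 59 to 74 higher genes and 3 to 11 lower. These hold the 53 and the 3 by construction, since a gene called in all 4 libraries is called in any 3. Without iWAT_ASPC there were 8 lower genes, with 11 without eWAT_DFAT and 7 without eWAT_ASPC. The other alternatives gave 44 to 70 higher genes. The share of interferon-high cells also ranked in the top 5% by other interferon-stimulated genes moved to 34.6%, 29.7%, 14.3% and 38.6% with thinning, and to 63.0%, 31.8% and 57.6% in iWAT_DFAT, iWAT_ASPC and eWAT_ASPC with the genes under 20 CPM. Among 1152 values of 64 genes over 18 settings, 871 moved by no more than the counting error (the distance from the centre to the edge of the widest 95% interval), 279 moved further and 2 changed sign. A change of sign was counted only where the main ratio was at least 2-fold in either direction. Changes of sign in smaller ratios fall under the other counts. The lowest log2 ratio of *Hp* was -0.88 when *Iigp1* was left out of the marker share, and that of *Gda* was -0.62 in the cells with 5 or more marker UMIs. The cause of these changes was not tested. The low marker level limits the choice of cells in iWAT_ASPC, where 202 were taken on 1 marker UMI. No paired analysis was possible because the results come from no test and the labels give no replicate numbers; each ratio compares cells of the same library.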

Other observations

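Genes outside the interferon lists differed between libraries in how the interferon-high cells stood to the low group. *Igfbp5*, which encodes a binding protein of insulin-like growth factors, had log2 ratios of -1.27, 2.60, 1.16 and 2.65 in iWAT_DFAT, eWAT_DFAT, iWAT_ASPC and eWAT_ASPC. *Aspn*, which encodes the matrix protein asporin, had -0.90, 2.52, 0.55 and -0.26, and *Il11*, a cytokine gene, had -3.34, 0.08, -0.08 and 0.37. These were 3 of the 6 genes with the widest range over the libraries among those at 20 CPM or more in the interferon-high cells of some library, the others being *Hp*, *Chchd10* and *Megf10*, and with 1 library per condition that range was not tested. *Saa3*, an acute-phase gene that was named after its values were seen, stood at 1376, 4311, 9382 and 8809 CPM along the 4 steps of the marker share in iWAT_DFAT and at 416, 808, 4689 and 4487 in eWAT_DFAT. It stood at 0.290, 0.0852, 1.10 and 14.9 in iWAT_ASPC and at 59.9, 114, 116 and 53.9 in eWAT_ASPC.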
